A study of Mus musculus with 10 samples.

Results

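The 10 genes described here, Fos, Jun, Junb, Egr1, Ier2, Dusp1, Atf3, Atf4, Btg2 and Zfp36, are immediate-early and stress response genes, chosen by name from the 24453 genes of a read count table in which each of them had a row. The libraries were made from intratelencephalic projection neurons (IT-PNs), cortical neurons whose axons stay within the forebrain, of the primary motor cortex of male Fezf2-Gfp mice of the strain (Zfp312-EGFP)CO61GsatMmnc, aged postnatal day 28 to 32. In this line GFP is expressed from a transgene with the regulatory sequence of Fezf2, also called Zfp312, so that GFP reports the transgene and not Fezf2 RNA itself. All mice had received the retrograde tracer cholera toxin subunit B (CTB), coupled to Alexa 647, in the left hemisphere at postnatal day 23 to 25, and layer 5 of the right hemisphere was dissociated and sorted. Cells positive for both GFP and CTB gave the Fezf2+ IT-PN libraries and cells positive for CTB alone gave the Fezf2- IT-PN libraries, 1 of each type from each of 5 animals, with a lower mean yield of sorted cells for the Fezf2- type. By RT-PCR, the paper found a Fezf2 product in the sorted Fezf2+ fractions and none in the Fezf2- fractions.

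Immediate-early genes are transcribed within minutes of synaptic activity, growth factors or stress without the need for new protein, through factors such as CREB and serum response factor that are already present and are switched on by calcium and MAP kinase signals. Most of them encode short-lived transcription factors and feedback regulators, which then set a second wave of transcription, and in cortical neurons their RNA is widely used as a mark of recent activity. The same genes are also transcribed in glia and immune cells, and the integrated stress response, in which Atf4 and Atf3 act, answers amino acid shortage and misfolded protein.

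The gene counts of Fezf2+ libraries 1 to 5 summed to 118134, 107643, 118069, 151591 and 203379 reads, and those of Fezf2- libraries 1 to 5, numbered by the same animals, to 167916, 89138, 168711, 211368 and 217738. In most libraries these totals exceed the mapped reads that the paper gives. A read counts on every gene it overlaps, but the cause of the excess was not tested. The total was higher in the Fezf2- library in 4 of 5 animals, and a two-sided exact permutation test over the 5 pairs gave p = 0.188, where the design cannot reach a p below 0.063. Levels are given as CPM, read counts scaled to a common library total after TMM scaling, which makes the effective sizes of libraries comparable. A floor of 3 reads then corresponded to between 14.6 and 35.3 CPM, depending on the library, and floors and intervals cover counting error only, since amplified reads that carry no molecular identifier can come from the same molecule.

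Of the 10 genes, 8 have a promoter in the RefSeq table used, which spans 250 bases before to 50 after the start site. The 180 bases before the start site are printed for Fos, Junb, Btg2 and Zfp36, whose windows between them hold a match to each motif found in any of the 8. Fos lies on the plus strand (chr12:85473710-85473889, GRCm38.p6) and the others on the minus strand, Junb at chr8:84978749-84978928, Btg2 at chr1:134079156-134079335 and Zfp36 at chr7:28379229-28379408. The sequences read 5′ to 3′ in the direction of the gene, and capitals mark matches to TGACG on either strand, including the full cyclic AMP response element TGACGTCA that CREB and ATF proteins bind, and a CArG box, the element that serum response factor binds.
Fos: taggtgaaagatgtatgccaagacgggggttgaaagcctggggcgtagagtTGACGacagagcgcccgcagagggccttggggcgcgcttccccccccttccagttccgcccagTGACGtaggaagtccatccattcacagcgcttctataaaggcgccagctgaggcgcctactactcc
Junb: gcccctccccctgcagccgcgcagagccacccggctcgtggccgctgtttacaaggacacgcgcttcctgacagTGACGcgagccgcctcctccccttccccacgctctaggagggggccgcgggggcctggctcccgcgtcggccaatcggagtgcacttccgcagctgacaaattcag
Btg2: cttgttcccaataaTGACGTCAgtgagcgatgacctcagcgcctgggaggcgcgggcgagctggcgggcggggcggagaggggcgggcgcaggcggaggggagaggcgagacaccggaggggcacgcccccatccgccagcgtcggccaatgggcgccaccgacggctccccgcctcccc
Zfp36: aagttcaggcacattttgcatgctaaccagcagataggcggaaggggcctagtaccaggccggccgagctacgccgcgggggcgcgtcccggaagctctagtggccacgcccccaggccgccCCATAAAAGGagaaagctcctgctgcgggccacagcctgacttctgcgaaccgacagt

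In these windows of 300 bases, TGACG on either strand was found in 6 of the 8 members, Fos, Junb, Dusp1, Atf3, Atf4 and Btg2, and in 20.8% of all 32851 promoters. The full TGACGTCA, which contains TGACG on both strands, was found in Dusp1, at bases -143 to -136 counted from the start site, and in Btg2, at bases -166 to -159, against 1.79% of all promoters. A CArG box was found in Zfp36, at bases -58 to -49, against 1.63% of all promoters. The Egr motif GCGNGGGCG was found in Btg2 and Zfp36, against 5.55% of all promoters. The letters TATAAA were found in Fos, at bases -33 to -28, and in Junb, at bases 1 to 6, against 13.6% of all promoters. The AP-1 motif TGANTCA was found in 0 of the 8 members and in 7.81% of all promoters. All motifs were searched on both strands, and a match describes the letters of the window and not a bound site.

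**Figure D1:**
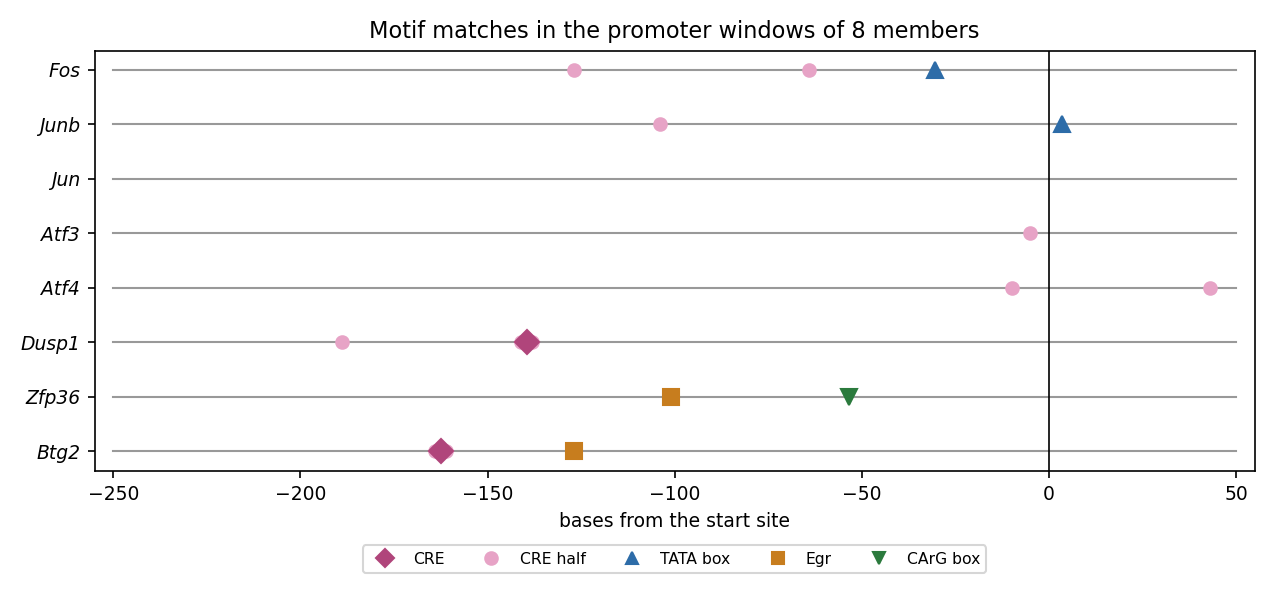
Each line is the promoter window of 1 of 8 members, with the distance from the start site in bases on the x axis, and symbols mark matches to the CRE (TGACGTCA), the short CRE core (TGACG), the TATA box, the Egr motif and the CArG box. TGACG is found in 6 of the 8 windows, the full element in Dusp1 and Btg2, and the CArG box in Zfp36.

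In the plot of motif matches Jun has no symbol, Fos, Dusp1, Atf4 and Btg2 have more than 1 match to TGACG, and Btg2 and Zfp36 are the members with a match to the Egr motif. The genes themselves are short. The median genomic span of the 10 members was 3034 bases, against 45320 bases over the 7138 tested genes with a known span. Ier2 is the shortest of them, with 1522 bases in 1 exon, and Atf3 the longest, with 13038 bases. None of the 10 genes overlaps another gene of the RefSeq table.

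Summed over the 10 genes, the level was 492, 294, 34.6, 35.3 and 288 CPM in Fezf2+ libraries 1 to 5 and 1369, 3938, 1065, 1533 and 683 CPM in Fezf2- libraries 1 to 5. Each Fezf2- library was thus above each Fezf2+ library, with Fezf2+ libraries 3 and 4 far below the other Fezf2+ libraries and Fezf2- library 2 far above the other Fezf2- libraries. The mean was 229 ± 195 CPM in Fezf2+ and 1717 ± 1283 CPM in Fezf2- libraries (SD, n = 5 each), a 7.51-fold ratio of means, or 2.91 on the log2 scale. Within animals 1 to 5 the ratio was 2.78, 13.4, 30.8, 43.4 and 2.37. The ratios of animals 3 and 4 divide by only 5 and 3 member reads in the Fezf2+ library, so their size is uncertain. In reads, the members held 160 of the 698816 gene reads of the Fezf2+ libraries, 2.29 per 10000, and 1267 of the 854871 of the Fezf2- libraries, 14.8 per 10000. No p is given for this sum, because its members were chosen with results of these data known. In such bulk libraries fewer cells of a type and less RNA per cell cannot be told apart. Fezf2+ library 4 also had the fewest genes with a read, 3990, and the lowest TMM factor, 0.568, while Fezf2+ library 3 had 6255 such genes. In Fezf2+ library 1, ERCC spike-in reads, from RNA added to each sample, were 46.7% of gene and spike-in reads.

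**Figure D2:**
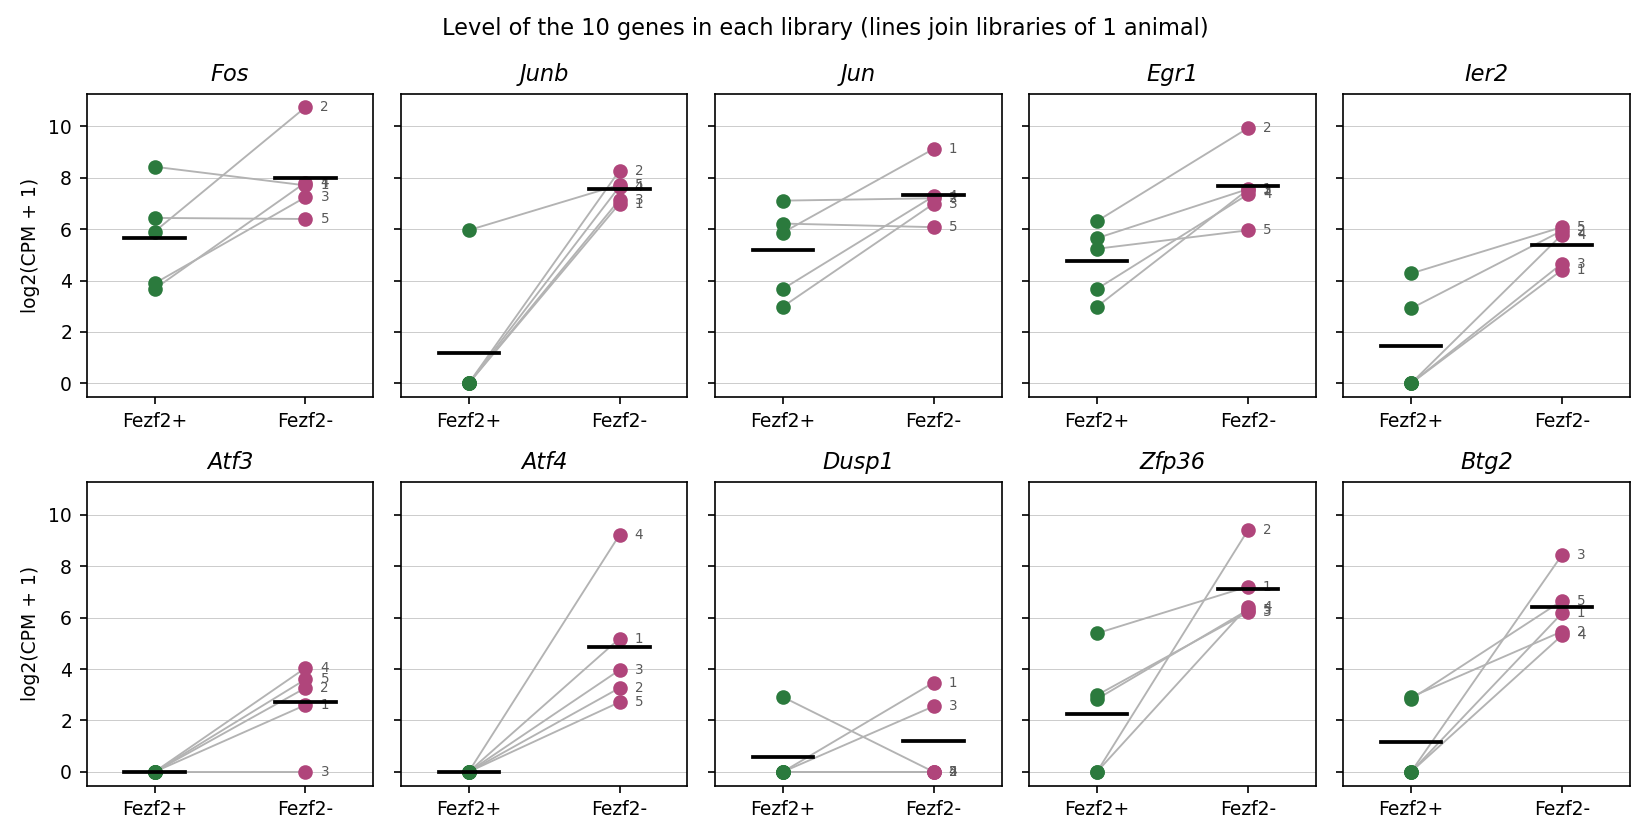
Each panel shows 1 gene, with log2(CPM + 1) on the y axis, a point for each of the 5 Fezf2+ (green) and 5 Fezf2- (magenta) libraries, numbers for the animals, grey lines joining the libraries of 1 animal and black bars for the mean of the plotted values. Junb, Ier2, Atf4, Btg2 and Zfp36 have no overlap between the types, which for Atf4 rests on 1 read in each of Fezf2- libraries 2 and 5, while the points of Fos, Jun and Egr1 overlap.

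The plot of each gene by library separates the genes with most Fezf2+ points at or near 0, such as Junb, Atf4 and Btg2, from Fos, Jun and Egr1, which had reads in each of the 10 libraries. The genes are described in order of their roles, and fold changes are those of Fezf2- over Fezf2+ from edgeR's quasi-likelihood test, blocked on the animal, over all 7409 tested genes. The adjusted p of each of the 8 tested members in that test was 0.998 (Benjamini-Hochberg adjustment).

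Fos, Jun and Junb encode subunits of AP-1, the dimeric transcription factor made of a Fos and a Jun protein or of Jun proteins alone. Fos, the partner that cannot pair with itself, had 42, 9, 2, 1 and 14 reads in Fezf2+ libraries 1 to 5 and 41, 199, 31, 29 and 15 reads in Fezf2- libraries 1 to 5. In CPM these were 344, 58.9, 13.8, 11.8 and 85.8 in the Fezf2+ and 208, 1715, 151, 224 and 83.3 in the Fezf2- libraries. Fezf2- library 2 stood far above the rest with 52.0% of all Fos reads, and the types overlapped, since the other 4 Fezf2- libraries lay below Fezf2+ library 1. Fos was higher in the Fezf2- library in 3 of 5 animals, and in 4 of 5 under RLE size factors or library size alone. The mean was 103 ± 139 CPM in Fezf2+ and 476 ± 695 CPM in Fezf2- libraries (SD, n = 5 each), and the fitted log2 fold change was 2.31 (SE 1.38) with an unadjusted p of 0.111 in edgeR. In fits that each lacked 1 animal, Fos had a log2 fold change between 1.56 and 3.27, with an unadjusted p in edgeR between 0.0369 and 0.307, the latter without animal 2.

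Jun, which can pair with itself or with Fos, had 7, 21, 1, 1 and 12 reads in Fezf2+ libraries 1 to 5 and 110, 17, 26, 20 and 12 reads in Fezf2- libraries 1 to 5. Fezf2- library 1 was high, with 48.5% of all Jun reads, and 3 of the 5 Fezf2- libraries lay above the highest Fezf2+ library in CPM. Jun was higher in the Fezf2- library in 4 of 5 animals, in 5 of 5 under RLE size factors and in 3 of 5 under library size alone. Its mean was 57.4 ± 53.1 CPM in Fezf2+ and 210 ± 197 CPM in Fezf2- libraries (SD, n = 5 each), and its log2 fold change was 2.09 (SE 1.22) with an unadjusted p of 0.102 in edgeR. With each animal left out in turn it was between 1.65 and 2.83, with an unadjusted p in edgeR between 0.0331 and 0.236.

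Junb, a Jun protein that can replace Jun in AP-1 and is a weaker activator of many of its targets, had 0, 0, 0, 0 and 10 reads in Fezf2+ libraries 1 to 5 and 25, 36, 29, 26 and 38 reads in Fezf2- libraries 1 to 5. These were 127, 310, 141, 201 and 211 CPM in the Fezf2- libraries, while Fezf2+ library 5 had 61.3 CPM. Each Fezf2- library lay above each Fezf2+ library, and the reads were spread evenly over the Fezf2- libraries, the highest of which held 23.2% of all Junb reads. The mean was 12.3 ± 27.4 CPM in Fezf2+ and 198 ± 72.6 CPM in Fezf2- libraries (SD, n = 5 each), the former resting on library 5 alone. Junb had a log2 fold change of 5.63 (SE 1.67) with an unadjusted p of 0.00351 in edgeR, and ranked 16 of the 7409 tested genes by that p. With each animal left out in turn its log2 fold change was between 5.18 and 7.85. The latter is from the fit without animal 5, which leaves 0 Junb reads in Fezf2+, so it depends on the prior count and is no bound.

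Egr1, a zinc-finger transcription factor that binds GC-rich promoters and whose RNA follows neuronal activity, had 6, 12, 1, 1 and 6 reads in Fezf2+ libraries 1 to 5 and 37, 113, 38, 21 and 11 reads in Fezf2- libraries 1 to 5. In CPM these were 49.2, 78.5, 6.91, 11.8 and 36.8 in the Fezf2+ and 188, 974, 185, 163 and 61.1 in the Fezf2- libraries. Fezf2- library 2 was again the highest, with 45.9% of the Egr1 reads, and the types overlapped through Fezf2- library 5, which lay below Fezf2+ library 2. Within each of the 5 animals Egr1 was higher in the Fezf2- library. The mean was 36.6 ± 29.2 CPM in Fezf2+ and 314 ± 372 CPM in Fezf2- libraries (SD, n = 5 each), the latter raised by library 2. Egr1 had a log2 fold change of 2.85 (SE 1.13) with an unadjusted p of 0.0196 in edgeR, which was 0.0526 without animal 2 and 0.0528 without animal 3.

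Ier2, a small nuclear protein encoded by an immediate-early gene without introns, had 0, 1, 0, 0 and 3 reads in Fezf2+ libraries 1 to 5 and 4, 7, 5, 7 and 12 reads in Fezf2- libraries 1 to 5. In CPM the Fezf2- libraries had 20.3, 60.3, 24.3, 54.2 and 66.6, and the highest Fezf2+ library had 18.4. The types did not overlap, but Fezf2- library 1 was close to Fezf2+ library 5. The mean was 4.98 ± 8.01 CPM in Fezf2+ and 45.1 ± 21.4 CPM in Fezf2- libraries (SD, n = 5 each), the former under the floor of any library. Ier2 had a log2 fold change of 3.34 (SE 1.33) with an unadjusted p of 0.0214 in edgeR, and between 3.10 and 4.22 with 1 animal left out.

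Atf3 and Atf4 are basic leucine zipper factors of the stress response. Atf3, which is induced by many kinds of cell damage and by Atf4, had 0 reads in each Fezf2+ library and 1, 1, 0, 2 and 2 reads in Fezf2- libraries 1 to 5. With 6 reads in all it stayed at or under the floor of 3 reads in each library, was not tested and is given no fold. Atf4, the central activator of the integrated stress response, had 0 reads in each Fezf2+ library and 7, 1, 3, 77 and 1 reads in Fezf2- libraries 1 to 5. In CPM the Fezf2- libraries had 35.5, 8.62, 14.6, 596 and 5.55, so library 4 stood far above the others and held 86.5% of the Atf4 reads. The mean in the Fezf2- libraries was 132 ± 260 CPM (SD, n = 5), at least 5.57-fold higher than in Fezf2+ libraries against a floor of 3 reads per library, a bound that rests on library 4. Without that library, left out after seeing the data, the mean was 16.1 ± 13.5 CPM (SD, n = 4), under the mean floor of 23.7 CPM in the Fezf2+ libraries, so no fold is given. The fitted log2 fold change of Atf4 was 5.99 (SE 1.91) with an unadjusted p of 0.00801 in edgeR, a value that depends on the prior count and is no bound. Without animal 4 the fitted log2 fold change of Atf4 was 4.24 with an unadjusted p of 0.0855 in edgeR.

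The remaining members limit the response that the others start. Dusp1, a phosphatase that switches off MAP kinases, had 0, 1, 0, 0 and 0 reads in Fezf2+ libraries 1 to 5 and 2, 0, 1, 0 and 0 reads in Fezf2- libraries 1 to 5. These 4 reads were too few for a test or a fold, and a difference in Dusp1 was not detectable at this depth. Zfp36, also called tristetraprolin, binds AU-rich elements in short-lived messenger RNAs and brings about their decay. It had 5, 0, 1, 0 and 1 reads in Fezf2+ libraries 1 to 5 and 29, 78, 15, 11 and 14 reads in Fezf2- libraries 1 to 5. In CPM these were 41.0, 0, 6.91, 0 and 6.13 in the Fezf2+ and 147, 672, 72.9, 85.1 and 77.8 in the Fezf2- libraries. The types did not overlap, Fezf2- library 2 was the highest, and its reads were 50.6% of all Zfp36 reads. The mean was 10.8 ± 17.2 CPM in Fezf2+ and 211 ± 260 CPM in Fezf2- libraries (SD, n = 5 each), the former under the floor of any library. Zfp36 had a log2 fold change of 4.12 (SE 1.46) with an unadjusted p of 0.0104 in edgeR, and between 3.30 and 5.08 with 1 animal left out.

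Btg2, an antiproliferative protein that recruits the deadenylase which shortens messenger RNA tails, had 0, 1, 0, 0 and 1 reads in Fezf2+ libraries 1 to 5 and 14, 5, 71, 5 and 18 reads in Fezf2- libraries 1 to 5. Library 3 of the Fezf2- type was high, with 345 CPM and 61.7% of the Btg2 reads, the lowest Fezf2- library had 38.7 CPM, and the types did not overlap. The ratio of pooled Btg2 reads, each over its type's summed effective library size and with 2 reads on the Fezf2+ side, was 45.6 with an exact Clopper-Pearson 95% interval from 12.3 to 381. Without Fezf2- library 3, an alternative chosen after seeing the data, this ratio was 22.5 (interval from 5.86 to 192). Btg2 had a log2 fold change of 4.82 (SE 1.57) with an unadjusted p of 0.00656 in edgeR. With each animal left out in turn it was between 4.03 and 5.76.

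Different members led in different libraries. Fos had the most reads of the 10 genes in Fezf2+ libraries 1, 3 and 5 and Jun in Fezf2+ library 2, while Fos, Jun and Egr1 were level at 1 read in Fezf2+ library 4. In Fezf2- libraries 1 to 5 the members with the most reads were Jun, Fos, Btg2, Atf4 and Junb. Fos made up 42.5% of the member reads of the Fezf2+ libraries and 24.9% of those of the Fezf2- libraries. Both pooled shares were raised by single libraries. Fos held 70% of the member reads of Fezf2+ library 1 and 43.5% of those of Fezf2- library 2. Of the 10 genes, 4, 3, 0, 0 and 5 had at least 3 reads in Fezf2+ libraries 1 to 5, and 8, 7, 8, 8 and 7 had so many in Fezf2- libraries 1 to 5. Fezf2+ libraries 3 and 4 thus had no member at 3 reads or more, with 5 and 3 member reads in all, while each Fezf2- library had at least 123.

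At an adjusted p at or below 0.1, edgeR's quasi-likelihood test, blocked on the animal and with Benjamini-Hochberg adjustment, called 0 of the 8 tested members and 0 of all 7409 tested genes (0%). At an unadjusted p under 0.05 in the same fit, 6 of the 8 members were higher in Fezf2- IT-PNs, Junb, Btg2, Atf4, Zfp36, Egr1 and Ier2, against 168 of 7409 genes (2.27%). The same test without the block called Atf4 and Btg2, 2 of 8 members, against 159 of 7409 genes (2.15%) called higher in Fezf2-, each with an adjusted p of 0.0931 (Benjamini-Hochberg). Of the 1664 genes with an adjusted p, DESeq2 with the block called 55 higher in Fezf2- (3.31%) and 43 higher in Fezf2+. It called 4 of the 7 members with an adjusted p, all higher in Fezf2-, namely Junb, Btg2, Zfp36 and Egr1. Their Benjamini-Hochberg adjusted p in DESeq2 was 0.00988 for Junb, 0.0553 for Btg2, 0.0622 for Zfp36 and 0.0954 for Egr1, with log2 fold changes of 6.05, 4.90, 4.36 and 2.97. Fos and Jun were called by none of the 3 fits, and Ier2 had no adjusted p in DESeq2.

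The 8 tested members all had positive fitted log2 fold changes, with a median of 3.73, or 3.09 with Atf4 at its bound, against a median of 0.16 over all 7409 tested genes, 54.3% of which were higher in Fezf2-. These counts and medians are no support for a difference, because 5 of the 8 members, Junb, Ier2, Atf4, Btg2 and Zfp36, passed the filter of 10 CPM in 2 libraries through the Fezf2- libraries alone. The filter uses CPM over the plain total of gene reads, before TMM scaling, and on that scale Atf3 and Dusp1 did not pass. The same 5 members are those with each Fezf2- library above each Fezf2+ library, which held for 70 of the 7409 tested genes (0.945%) and for Atf4 rests on 1 read in each of 2 libraries. Fos, Jun and Egr1 passed it in both types.

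**Figure D3:**
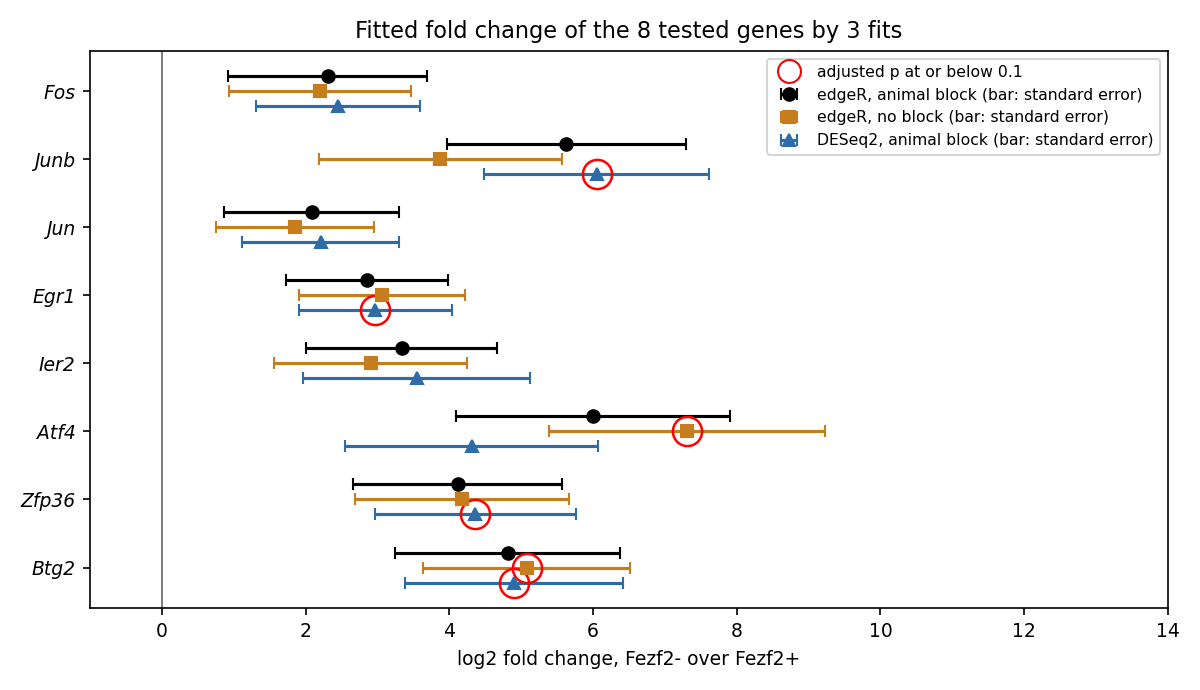
The log2 fold change of Fezf2- over Fezf2+ is on the x axis for the 8 tested members, from edgeR with the animal block (black), edgeR without it (orange) and DESeq2 with the block (blue), with bars for the standard error and red circles for an adjusted p at or below 0.1. All points lie above 0, and the circles mark Atf4 and Btg2 without the block and Junb, Egr1, Zfp36 and Btg2 in DESeq2.

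**Figure D4:**
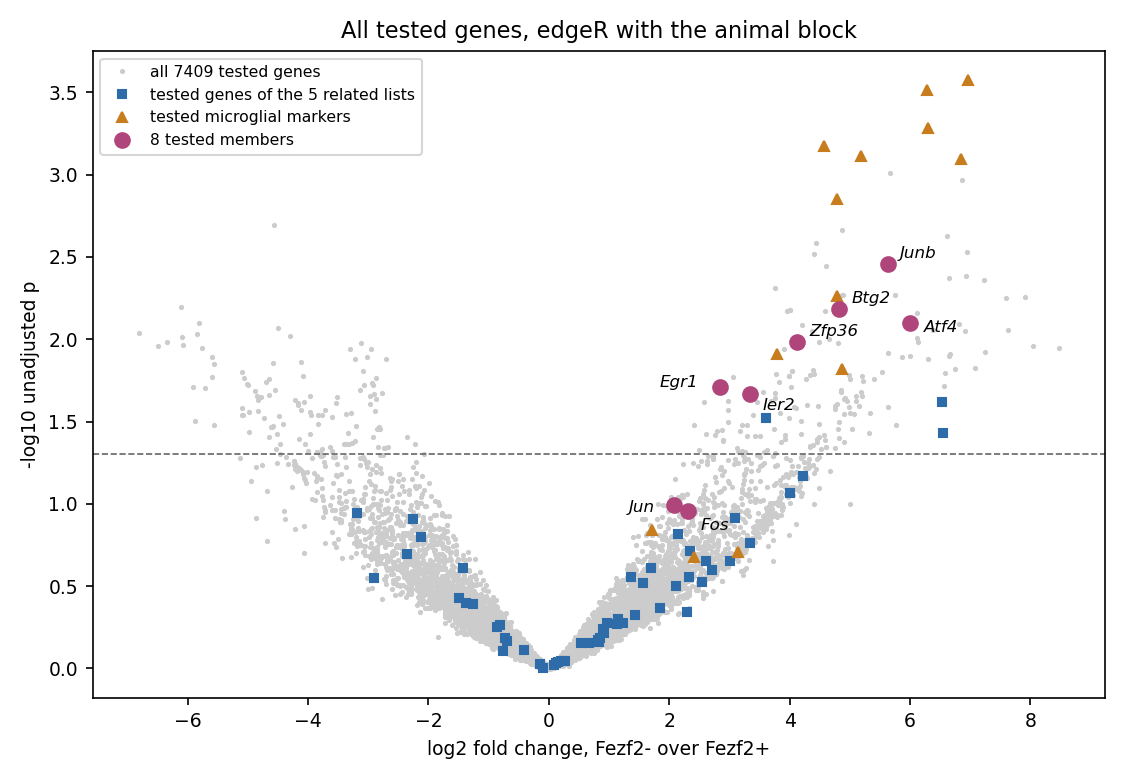
Each point is 1 of 7409 tested genes, with the log2 fold change of Fezf2- over Fezf2+ on the x axis and -log10 of the unadjusted p of edgeR with the animal block on the y axis, and the dashed line is a p of 0.05. The 8 tested members (magenta) lie on the right, 6 of them above the line, and 10 of 13 tested microglial markers (orange) lie above it.

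The plot of fold changes by fit shows that the fitted values of Fos and Jun are the lowest of the 8 in each fit, and that the values of Atf4 and Junb move between fits. Atf4 had 4.31 in DESeq2 and 7.31 without the block. Junb had 6.05 in DESeq2 and 3.88 without the block, the latter with a Benjamini-Hochberg adjusted p of 0.211 in edgeR. In the plot of all tested genes, Junb, Btg2, Atf4 and Zfp36 lie among the upper points, at ranks 16, 29, 35 and 52 by p, while Jun and Fos are at ranks 598 and 662.

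Other genes of the same responses were read from lists, and edgeR with the block and Benjamini-Hochberg adjustment called 0 genes in each of these lists. Of 24 other immediate-early transcription factors, 6 could be tested, all 6 with a higher fitted level in Fezf2- in edgeR with the block (median log2 fold change 2.09), and 0 had an unadjusted p under 0.05. Of these 6, 4 met the filter, on its CPM before TMM scaling, within the Fezf2- type alone, so the count and median are partly set by the filter, and without the block Fosb and Srf were each at -0.09. Fosb, the list's gene with the most reads, had 21, 2, 0, 2 and 2 reads in Fezf2+ and 28, 1, 7, 2 and 1 reads in Fezf2- libraries 1 to 5, with a log2 fold change of 0.12. It was higher in the Fezf2+ library in 4 of 5 animals, with means of 44.2 ± 72.0 CPM in Fezf2+ and 41.1 ± 57.4 CPM in Fezf2- libraries (SD, n = 5 each). Most of its reads came from both libraries of animal 1, and Fosb and Srf were named after their values were seen. The list's genes Fosl1, Fosl2, Egr4, Nr4a2, Npas4, Maff, Mafk and Cebpb had 0 reads in all 10 libraries.

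Of 32 other activity-induced effector genes, 11 could be tested, 10 of them higher in Fezf2- and 1 higher in Fezf2+ (median log2 fold change 1.43), and 6 of them met the filter within the Fezf2- type alone, which partly sets this count. Without the block Dusp6 and Mcl1, named after their values were seen, turned to -0.03 and -0.97. Zfp36l1, a relative of Zfp36 that binds the same kind of RNA element, was the 1 gene of this list with an unadjusted p under 0.05 in edgeR. It had 0, 1, 1, 0 and 0 reads in Fezf2+ and 14, 14, 6, 0 and 2 reads in Fezf2- libraries 1 to 5, high in animals 1 and 2 and at 0 in both libraries of animal 4. The ratio of pooled Zfp36l1 reads, on the same scale as for Btg2, was 14.5 with a Clopper-Pearson 95% interval from 3.74 to 124. Its log2 fold change was 3.61 (SE 1.53) with an unadjusted p of 0.0302 in edgeR. Arc, whose RNA travels to active synapses, was named after its values were seen and had 23 reads in Fezf2+ library 4 and 0 in the other 9 libraries.

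The integrated stress response, the pathway of Atf4, showed no common direction among the tested genes of its list, which include none of its 4 listed kinases. Of 25 listed genes 10 could be tested, 5 higher in each type, with a median log2 fold change of -0.01 and 0 genes at an unadjusted p under 0.05 in edgeR. This split and median rest on genes near 0. Ppp1r15a, named after its values were seen, had a log2 fold change of -0.10 (SE 36.7) in edgeR and of 0.82 in DESeq2. Ddit3, Trib3, Chac1, Atf5, Eif2ak2 and Eif2ak3 had 0 reads in all 10 libraries. Of the 10 tested genes, 2 met the filter within the Fezf2- type alone and 1 within the Fezf2+ type alone. Summed over the 25 listed genes, the level was higher in the Fezf2- library in 4 of 5 animals. Its mean was 311 ± 274 CPM in Fezf2+ and 285 ± 166 CPM in Fezf2- libraries (SD, n = 5 each). Of 12 heat-shock genes 7 could be tested, 4 higher in Fezf2- and 3 higher in Fezf2+ (median 0.54), again with 0 at an unadjusted p under 0.05 in edgeR, and Hspa1a and Hspa1b had 0 reads throughout. Of the 7, 3 met the filter within the Fezf2- type alone.

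Of 26 kinases and transcription factors upstream of the members, 21 could be tested, 13 higher in Fezf2- and 8 higher in Fezf2+ (median 0.84), 2 of them at an unadjusted p under 0.05 in edgeR. Of the 21, 9 met the filter within the Fezf2- type alone and 3 within the Fezf2+ type alone. Crebbp, a coactivator that CREB recruits, had 0, 1, 0, 0 and 0 reads in Fezf2+ and 3, 0, 54, 8 and 1016 reads in Fezf2- libraries 1 to 5. Fezf2- library 5 held 93.9% of these reads, and the type overlapped the other through library 2. The ratio of pooled Crebbp reads, on the same scale as for Btg2, was 872 with a Clopper-Pearson 95% interval from 156 to 34455. Without Fezf2- library 5, left out after seeing the data, it was 67.0 (interval from 11.6 to 2685), so its size rests on that library. Its log2 fold change in edgeR with the block was 6.55 (SE 2.85), with a Benjamini-Hochberg adjusted p of 0.998. Without the block it was 9.05 with a Benjamini-Hochberg adjusted p of 0.0931 in edgeR, and in DESeq2 with the block it was 5.43 with a Benjamini-Hochberg adjusted p of 0.0755. Mapk8, named after its values were seen, was the other gene of this list with an unadjusted p under 0.05 in edgeR. Its log2 fold change was 6.54 (SE 2.56) with an unadjusted p of 0.0241 in edgeR with the block. It had 0, 0, 3, 0 and 0 reads in Fezf2+ and 4, 0, 1161, 0 and 0 reads in Fezf2- libraries 1 to 5. Mapk8 was thus higher in Fezf2- in 2 of 5 animals and at 0 in both libraries of the others.

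Marker genes of other cells that the sort could hold were read in the same fit. Of 14 microglial markers 13 could be tested, all 13 with a higher fitted level in Fezf2- and 10 with an unadjusted p under 0.05 in edgeR, and 9 met the filter within the Fezf2- type alone. Without the block edgeR called 9 of them, and DESeq2 called 9. Their summed level was 205, 98.1, 48.4, 94.1 and 147 CPM in Fezf2+ libraries 1 to 5 and 5662, 3283, 4604, 3235 and 4888 CPM in Fezf2- libraries 1 to 5. The types were far apart, and Ctss, a lysosomal protease, was the most abundant gene of the list with 817 reads. None of the 14 was at 0 in all libraries. The 5 blood markers, of which 4 could be tested and 4 were higher in Fezf2-, summed to 844, 71.9, 13.8, 0 and 0 CPM in Fezf2+ and 3847, 2534, 224, 472 and 11.1 CPM in Fezf2- libraries 1 to 5, with Hbb-bs the most abundant at 410 reads. Those 4 all had an unadjusted p under 0.05 in edgeR with the block, and 2 met the filter within the Fezf2- type alone. At an adjusted p at or below 0.1 edgeR called 0 of them with or without the block and DESeq2 called 2. Their counts are uncertain, because hemoglobin genes have near-identical copies. Hba-a1 and Hba-a2 had identical counts in each library, so the same values enter the sum and the 4 tested markers under both names. The 2 markers that DESeq2 called were this pair. The part of microglial and blood RNA in the levels of Fos, Junb, Btg2, Zfp36 and the other members was not tested.

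The 10 neuronal markers, 7 of them tested, summed to 623, 543, 283, 635 and 116 CPM in Fezf2+ libraries 1 to 5 and 117, 94.8, 2674, 178 and 77.8 CPM in Fezf2- libraries 1 to 5. Of the 7, 5 had a higher fitted level in Fezf2+ and 2 in Fezf2-. Fezf2- library 3 stood apart, where Camk2a held 529 of the 550 reads of the list, and the other 4 Fezf2- libraries lay below the Fezf2+ library of the same animal. Without Camk2a, left out after seeing the data, the sum was 242 CPM in Fezf2+ library 3 and 102 CPM in Fezf2- library 3, and it was lower in the Fezf2- library in 5 of 5 animals. Camk2a had the most reads of these markers, 588, and Nefl had 0 in all libraries. Of 8 interneuron markers 0 could be tested, Gad2 had the most reads with 6, and Slc32a1, Pvalb, Vip, Dlx1 and Lhx6 were at 0. Of the tested astrocyte, oligodendrocyte precursor and endothelial and mural markers, 1 of 6, 2 of 6 and 1 of 3 were higher in Fezf2-, with Slc1a2, Pdgfra and Flt1 the most abundant. Of the tested oligodendrocyte markers, 2 of 7 were higher in Fezf2-. Astrocyte markers summed to a mean of 2066 ± 2131 CPM in Fezf2+ and 1441 ± 2685 CPM in Fezf2- (SD, n = 5 each). For oligodendrocyte markers the means were 1905 ± 3175 and 620 ± 638 CPM, and for oligodendrocyte precursor markers 1090 ± 891 and 789 ± 419 CPM. The astrocyte sum was above the neuronal sum in each Fezf2+ library and below it in Fezf2- libraries 3 and 5. Gfap and Acta2 were at 0.

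**Figure D5:**
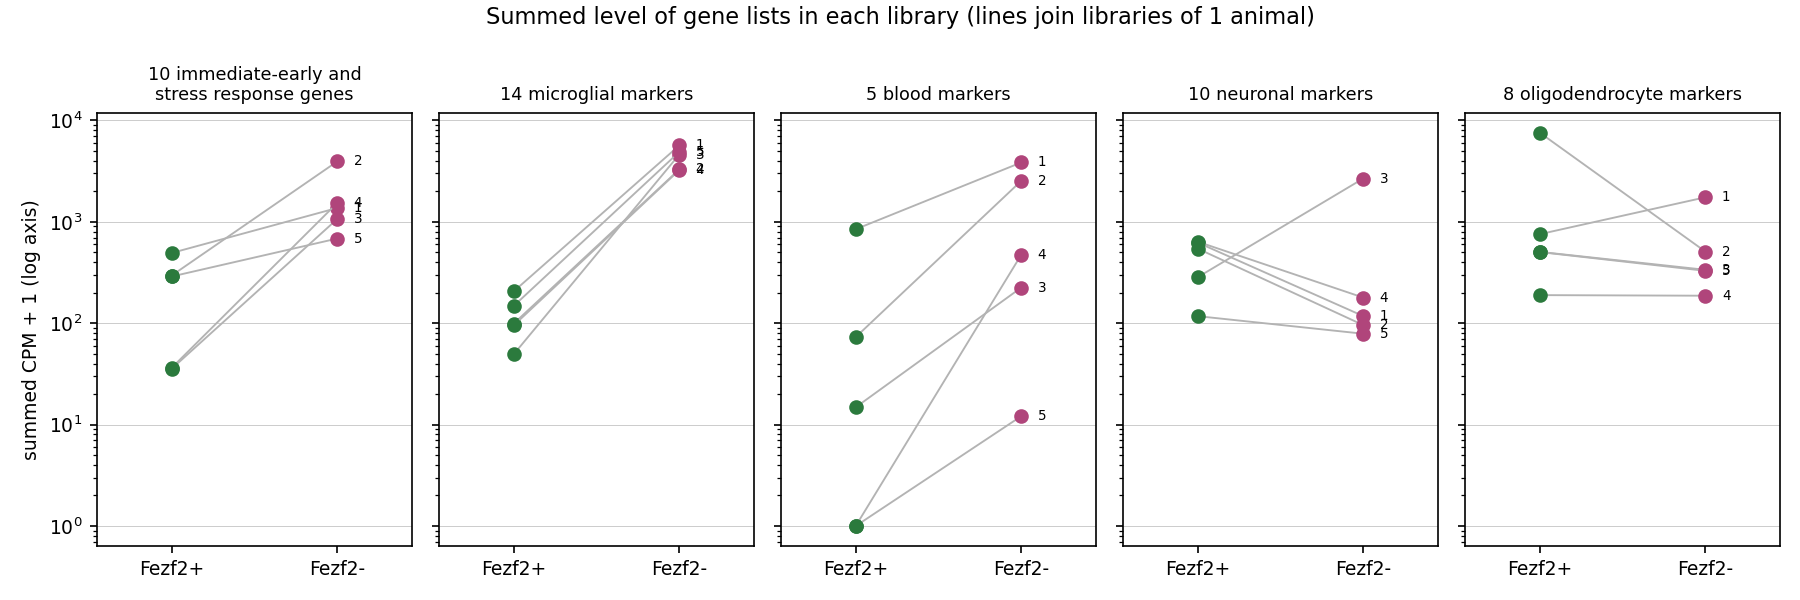
Summed CPM + 1 on a log axis for the 10 members and for microglial, blood, neuronal and oligodendrocyte markers in the 5 Fezf2+ (green) and 5 Fezf2- (magenta) libraries, with numbers for animals and lines joining the libraries of 1 animal. The members and the microglial markers do not overlap between the types, while the neuronal markers are lower in Fezf2- in 4 of 5 animals, and in 5 of 5 without Camk2a.

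The plot of summed lists sets the members beside these markers. Microglial markers had a mean of 119 ± 59.6 CPM in Fezf2+ and 4334 ± 1055 CPM in Fezf2- libraries (SD, n = 5 each).

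Of 7401 other tested genes, those whose log2(CPM + 1), centred within each type, was most like that of the summed members over the 10 libraries were Hp1bp3, Tmem164, Pgam1, Ryk and Jmjd8. Pearson's r with the members was 0.987, 0.965, 0.956, 0.927 and 0.925, and Spearman's rho was 0.973, 0.985, 0.973, 0.966 and 0.960. Hp1bp3 had 5, 3, 0, 0 and 5 reads in Fezf2+ and 4, 21, 4, 3 and 2 reads in Fezf2- libraries 1 to 5, low in Fezf2+ libraries 3 and 4 and high in Fezf2- library 2, as the members were. These 5 genes had between 9 and 54 reads in all and share the depth of each library with the members, so the correlations are given as a description.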

How the data were processed

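RNA-seq libraries of 5 Fezf2+ and 5 Fezf2- IT-PN samples were used. The authors mapped the reads to mm10 and deposited read counts per RefFlat gene without normalization (TopHat2 2.1.1 and bedtools 2.26.0 in the submitters' processing notes). BEDTools multiCov counts a read on every gene it overlaps, and use of strand is not stated. The 7409 of 24453 genes that reached 10 CPM, over the plain total of gene reads, in 2 libraries or more were tested with edgeR 4.0.16 in R 4.3.3 after TMM scaling, using the quasi-likelihood test blocked on the animal and Benjamini-Hochberg adjustment at 0.1. The filter, the animal factor and this threshold follow the study's methods, in which the test was DESeq2. With that test on the same libraries, the paper's text names Atf4, Egr1, Btg2, Zfp36 and Crebbp among genes increased in Fezf2- IT-PNs. The pairing follows the replicate numbers in the labels, and the paper describes samples of the same number as a pair from 1 animal. Deviations from the type means correlated between the libraries of an animal with r of 0.029 on average (-0.027 to 0.097 over 5 pairs). Alternatives were no block, DESeq2 1.42.0, RLE size factors, library size alone, no filter, a stricter filter, the legacy quasi-likelihood method, other thresholds and leaving out each animal. Scaling by ERCC spike-in reads, and leaving out a gene's highest library or Camk2a, were added after seeing the data. The scripts, in R and Python 3.11.15, were tested on simulated data. All 10 members are named, as are up to 3 genes per direction of each list with an unadjusted p under 0.05 and the same direction in at least 4 of 5 animals, the 5 genes most like the members, and each marker list's most abundant gene and markers at 0, of which 1 item is not reported here. Members and lists were chosen with earlier results of these data known. Positions are of GRCm38.p6, which is mm10. A deposited table of the authors' DESeq2 comparison, with fold changes and p-values, was not used.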

Additional observations from a re-analysis of the deposited data

Results flagged for a closer look

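Among 54 groups of 5 libraries examined, 24 had a highest or lowest library that stood far from the rest, where chance gives about 1 in 20 groups of normally distributed values. That share does not hold for sparse counts, since a library with 1 read beside libraries at 0 stands apart by construction. Of the members, Fos stood apart in Fezf2+ library 1 (344 CPM) and in Fezf2- library 2 (1715 CPM), and Zfp36 in the same libraries (41.0 and 672 CPM). Egr1 (974 CPM) and the sum of the members (3938 CPM) stood apart in Fezf2- library 2 as well. Jun stood apart in Fezf2- library 1 (558 CPM), Btg2 in Fezf2- library 3 (345 CPM) and Atf4 in Fezf2- library 4 (596 CPM). Junb stood apart in Fezf2+ library 5 (61.3 CPM) and Dusp1 in Fezf2+ library 2 (6.54 CPM, 1 read).

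Of the other genes, Crebbp stood apart in Fezf2+ library 2 (6.54 CPM, 1 read) and Fezf2- library 5 (5643 CPM). Hp1bp3 (181 CPM), Jmjd8 (34.5 CPM) and Ryk (8.62 CPM, 1 read) stood apart in Fezf2- library 2, and Pgam1 (221 CPM) and Ryk (49.2 CPM) in Fezf2+ library 1. Among marker sums, blood markers were high in Fezf2+ library 1 (844 CPM), oligodendrocyte markers in Fezf2+ library 2 (7574 CPM) and Fezf2- library 1 (1744 CPM), neuronal markers in Fezf2- library 3 (2674 CPM), astrocyte markers in Fezf2- library 4 (6223 CPM) and interneuron markers in Fezf2+ library 5 (6.13 CPM, 1 read).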

How the results depend on the processing

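Without the replicate block, edgeR called 279 genes and 2 members, against 0 and 0 with it, and DESeq2 with the block called 98 genes and 4 members. At an unadjusted p under 0.05, edgeR with the block gave 288 genes and 6 members. The cause of these differences was not tested. RLE size factors, library size alone, no filter, 10 CPM in at least 5 libraries (which leaves out Atf4), the legacy quasi-likelihood method, a threshold of 0.05 and leaving out each animal each called 0 genes in edgeR. With an animal left out between 5 and 8 members had an unadjusted p under 0.05 in edgeR. Over all tested genes, the fits ranged from 175 of 6184 without animal 3 to 270 of 6850 without animal 5. Of these, 100 and 194 were higher in Fezf2-. Of 95 alternative fold changes of single members, 95 were positive, 6 passed the threshold and 0 reversed. The summed log2 ratio of 2.91 was 2.97 under library size or RLE, 3.30 without Fos, between 2.45 and 3.47 with an animal left out, and 3.03 per ERCC read, an alternative chosen after seeing the data. At 3 reads per library, levels under 14.6 to 35.3 CPM cannot be read, which covers most Fezf2+ values of Junb, Ier2, Atf4, Btg2 and Zfp36 and the Fezf2- values of Atf4 in libraries 2 and 5.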
